A study of Mus musculus with 11 samples.

Results

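Chromatin accessibility was compared between luminal cells of terminal end buds (TEBs), the club-shaped growing tips of the pubertal mammary ducts, and luminal cells of the ducts behind them. The comparison took all merged ATAC-seq peaks with a count in any of the 3 luminal TEB and 3 luminal duct libraries, which were 153394 of the 153396 counted peaks of the series. ATAC-seq uses a transposase that inserts adapters into open chromatin, so the number of reads in a peak reports how accessible that stretch of DNA is. Both groups came from female C57BL/6 mice that carried an E-cadherin-GFP reporter, and the glands were taken at 5 weeks of age. The fluorescence guided the micro-dissection of TEBs and ducts, and luminal cells were then sorted as lineage-negative, CD29+, CD24+ and high in E-cadherin-GFP. The sort takes luminal progenitor and mature luminal cells together. Each group had 3 biological replicates. Each replicate is a bulk population, so fewer cells of a type and less accessible chromatin per cell cannot be told apart in any value below.

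TEBs form at puberty, when ovarian oestrogen and pituitary growth hormone drive the ducts through the fat pad, and they regress once the pad is filled. Oestrogen acts in the mature luminal cells through the receptor ERα, a ligand-activated factor that binds the oestrogen response element (ERE), a palindrome of GGTCA, any 3 bases and TGACC. These cells answer with paracrine signals such as amphiregulin, and progesterone, prolactin and cytokines act through their own receptors, the latter through JAK kinases and STAT factors. AP-1 is a family of FOS and JUN dimers whose genes belong to the immediate-early class, which is transcribed within minutes of a stimulus.

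The luminal duct libraries held 4876251, 5561051 and 4650216 counts in peaks, and the luminal TEB libraries 3480710, 3738324 and 2960093. Peaks no farther than 500 bp from a transcription start (TSS) took 35.6% to 37.4% of the counts in duct and 32.7% to 34.6% in TEB libraries, and peaks made of repeat sequence over more than 50% of their length took 4.46% to 5.96% and 5.58% to 7.21%. Levels are given in CPM, that is counts scaled to a common library total. The promoters of the luminal genes Krt8, Epcam and Cldn3 had mean values of 59.1, 62.9 and 80.1 CPM in duct libraries. In TEB libraries they were at 50.3, 53.3 and 69.0 CPM. Krt19, another luminal gene, was at 29.5 CPM in duct and 31.3 in TEB libraries. In basal duct cells Epcam was still at 51.9 CPM, while Krt8, at 23.6, and Cldn3 were lower. The mature luminal promoter Pgr was at 56.6 CPM in luminal duct and 61.4 in basal duct cells. An open luminal promoter therefore does not by itself mark luminal cells. The basal keratin promoters Krt5 and Krt14 were at 0.96 and 0.993 CPM in duct and 0.421 and 2.1 in TEB libraries, against 18.5 and 52.6 in basal duct cells. The smooth-muscle promoters Acta2 and Myh11 were at 10.1 and 7.99 CPM in duct and 15.5 and 6.32 in TEB libraries, against 62.4 and 20.6 in basal duct cells. Of the 8 basal markers, all but Krt5 and Myh11 had a higher mean in TEB libraries. None of the 26 lineage markers examined passed the test between luminal TEB and duct, although Acta2 did so with scaling factors from peaks near TSSs (0.78, edgeR adjusted p = 0.034, against 0.63 and 0.16). Few of all promoter peaks passed this test, 1.44% as higher in duct and 0.0873% as higher in TEB cells. The part of basal cells in the results was not tested. The summed promoter CPM of the fibroblast, endothelial, immune, adipocyte, pericyte, Schwann cell and keratinocyte marker lists was at most 68.3 in any luminal library. Promoter peaks were found for 7 of 12 fibroblast, 4 of 10 endothelial, 2 of 12 immune, 3 of 7 adipocyte, 4 of 6 pericyte, 4 of 7 Schwann cell and 3 of 8 keratinocyte genes.

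Sequences at some of the sites described below are shown first. The first set holds the 7 peaks with an ERE in their central 300 bases that were more accessible in duct than in TEB cells. They are named here by the gene with the nearest TSS and were chosen after their values were seen. Each line gives 41 bases of the plus strand of mm10, with the ERE in capitals.
Gadd45g site, chr13:52057609-52057649: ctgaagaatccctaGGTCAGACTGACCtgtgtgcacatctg
Pfkfb3 site, chr2:11540428-11540468: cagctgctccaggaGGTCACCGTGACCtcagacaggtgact
Fcna site, chr2:25631416-25631456: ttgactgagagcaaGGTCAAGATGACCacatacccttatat
Ssx2ip site, chr3:146316306-146316346: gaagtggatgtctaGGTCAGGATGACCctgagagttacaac
Epha7 site, chr4:29185778-29185818: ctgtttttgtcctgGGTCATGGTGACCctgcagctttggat
Sema3d site, chr5:12655479-12655519: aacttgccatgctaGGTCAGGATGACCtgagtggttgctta
Gm16223 site, chr5:42347012-42347052: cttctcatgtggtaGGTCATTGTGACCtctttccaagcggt

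The second set holds the central 300 bases, on the same strand and build, of 3 peaks whose calls were kept in every alternative test that gave an adjusted p for them. One lies in the oestrogen-response gene Greb1 and one upstream of Laptm4a, and each holds a pair of AP-1 matches (TGANTCA), which are in capitals. The last lies just past the 3′ end of Fosb, an AP-1 subunit gene, and holds none.
Greb1 intron site, chr12:16790603-16790902: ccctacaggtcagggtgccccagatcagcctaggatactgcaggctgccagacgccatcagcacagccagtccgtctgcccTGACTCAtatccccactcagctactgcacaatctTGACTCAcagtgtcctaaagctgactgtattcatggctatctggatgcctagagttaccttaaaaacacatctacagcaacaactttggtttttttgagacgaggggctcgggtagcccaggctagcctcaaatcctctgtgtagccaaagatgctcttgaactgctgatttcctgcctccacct
Laptm4a upstream site, chr12:8875665-8875964: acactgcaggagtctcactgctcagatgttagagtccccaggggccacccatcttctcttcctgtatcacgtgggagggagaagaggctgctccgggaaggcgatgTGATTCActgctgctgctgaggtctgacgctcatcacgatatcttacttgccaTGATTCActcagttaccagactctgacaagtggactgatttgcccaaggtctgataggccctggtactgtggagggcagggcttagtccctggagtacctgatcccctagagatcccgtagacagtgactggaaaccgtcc
Fosb site past the gene end, chr7:19301942-19302241: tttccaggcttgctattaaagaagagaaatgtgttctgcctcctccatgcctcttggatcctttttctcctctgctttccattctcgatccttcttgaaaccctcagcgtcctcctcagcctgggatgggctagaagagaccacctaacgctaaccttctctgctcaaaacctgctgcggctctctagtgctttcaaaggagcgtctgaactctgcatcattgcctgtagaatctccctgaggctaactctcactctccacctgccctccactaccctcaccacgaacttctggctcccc

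Differences were tested with the exact test of edgeR, with p-values adjusted over all peaks by the Benjamini-Hochberg method, and called at an adjusted p below 0.05. Fold changes are log2 of TEB over duct. Their standard error (SE) comes from the spread of log2 CPM between the 3 libraries of each group. Alternatives used other scalings, filters, tests and thresholds or left out a library. Below, a call kept in every alternative was kept in each one that gave the peak an adjusted p. Not all did: a filter of low counts tested 87427 peaks, and DESeq2, another test, gave an adjusted p for 7670. In total 477 peaks were more accessible in TEB cells (0.311% of those tested) and 698 in duct cells (0.455%). The TEB-higher peaks had a median difference of 1.32 on the log2 scale (interquartile range 1.02 to 1.79) and rose from a median of 3.07 CPM in duct to 7.85 CPM in TEB libraries. The duct-higher peaks were the stronger peaks, with a median of 16.1 CPM in duct and 8.09 in TEB libraries and a median difference of 1.0 (0.676 to 1.36). They were also wider, at a median of 670 bp against 449 bp for TEB-higher peaks and 346 bp for all peaks. Without TEB replicate 1 the counts of peaks fell to 153 and 126, and without TEB replicate 3 to 182 and 163. Without duct replicate 1 they were 177 and 312, without duct replicate 2 they were 221 and 282, and without TEB replicate 2 they were 515 and 1043. The split also depended on the scaling: with factors taken from TSS peaks alone, which moved the median of all peaks from 0.01 to 0.16, there were 1326 TEB-higher and 329 duct-higher peaks.

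Most peaks with an ERE had lower values in TEB than in duct cells. An ERE stood in the central 300 bases of 158 peaks (0.103% of those tested), on either strand, which for a palindrome is the same match. Their summed level was 1160, 1220 and 1180 CPM in the duct libraries and 868, 983 and 1010 CPM in the TEB libraries, so that the groups did not overlap. Of the 158 peaks, 126 (79.7%) had a fold change below 0, against 49.1% of all peaks, with a median of -0.39 against 0.01. Among peaks over 500 bp from a TSS the 155 with an ERE had the same median, against 0.04 for all such peaks. The distance of the ERE median from the median of all peaks lay between -0.42 and -0.29 in every alternative fit, including those that left out a library. By count, 7 of the 158 were duct-higher (4.43%, against 0.455% of all peaks) and 0 were TEB-higher. In the basal cells of the same structures, which share no library with the luminal pair, 7 of these peaks were higher in TEB and 3 in duct cells, both a smaller share than among all peaks (8.22% and 9.73%), with a median fold change of 0.98 against 0.02.

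The clearest of the 7 ERE sites lay 211 kb from the TSS of Gadd45g, a stress-response gene that is itself induced early after stimuli. It had 6.34, 5.02 and 5.57 CPM in duct and 2.46, 0.817 and 0.985 CPM in TEB libraries (-1.94 ± 0.38 SE on the log2 scale, edgeR adjusted p = 0.0024). All 3 TEB libraries lay below the lowest duct library, and the call was kept without each library in turn. A site 272 kb from Sema3d, which encodes a secreted guidance protein, had 7.19, 7.62 and 12.6 CPM in duct and 2.19, 3.54 and 2.95 CPM in TEB libraries (-1.65 ± 0.3, edgeR adjusted p = 0.00084). A site 87.9 kb from Ssx2ip, a centrosome and junction protein gene, had 10.6, 11.5 and 13.7 CPM against 3.28, 6.81 and 4.92 CPM (-1.25 ± 0.3, edgeR adjusted p = 0.0042). At both sites the groups were separate, and both calls ended without TEB replicate 1, with values over all alternatives from -1.83 to -1.34 for Sema3d and from -1.55 to -0.99 for Ssx2ip. The site in an intron of Pfkfb3, a regulator of glycolysis, lay 13.2 kb from its TSS and had 20.5, 20.5 and 28.7 CPM in duct and 10.4, 14.2 and 12.8 CPM in TEB libraries (-0.9 ± 0.2, edgeR adjusted p = 0.0069).

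The other ERE sites lay 3.21 kb from Fcna (-1.11 ± 0.23), 372 kb from Epha7 (-0.96 ± 0.35) and 279 kb from the predicted gene Gm16223 (-1.29 ± 0.16), with edgeR adjusted p of 0.046, 0.01 and 0.021. Fcna encodes a ficolin of the complement system and Epha7 an ephrin receptor. These calls and that of Pfkfb3 were fragile. The Fcna call ended without any of the 6 libraries (-1.39 to -0.96), the Gm16223 call without any but duct replicate 2 (-1.4 to -1.13), the Epha7 call without duct replicate 2 or 3 or TEB replicate 1 or 3 (-1.16 to -0.73) and the Pfkfb3 call without duct replicate 3 or TEB replicate 1 or 3 (-1.01 to -0.7). Neither the Esr1 promoter, which had 7.82, 8.0 and 6.43 CPM in duct and 6.84, 6.81 and 5.58 CPM in TEB libraries (-0.2 ± 0.13, edgeR adjusted p = 0.92), nor the Pgr promoter (-0.41 ± 0.16, edgeR adjusted p = 0.2) passed the test. Esr1 encodes ERα and Pgr the progesterone receptor, which is a target of ERα. The groups overlapped at both promoters.

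**Figure D1:**
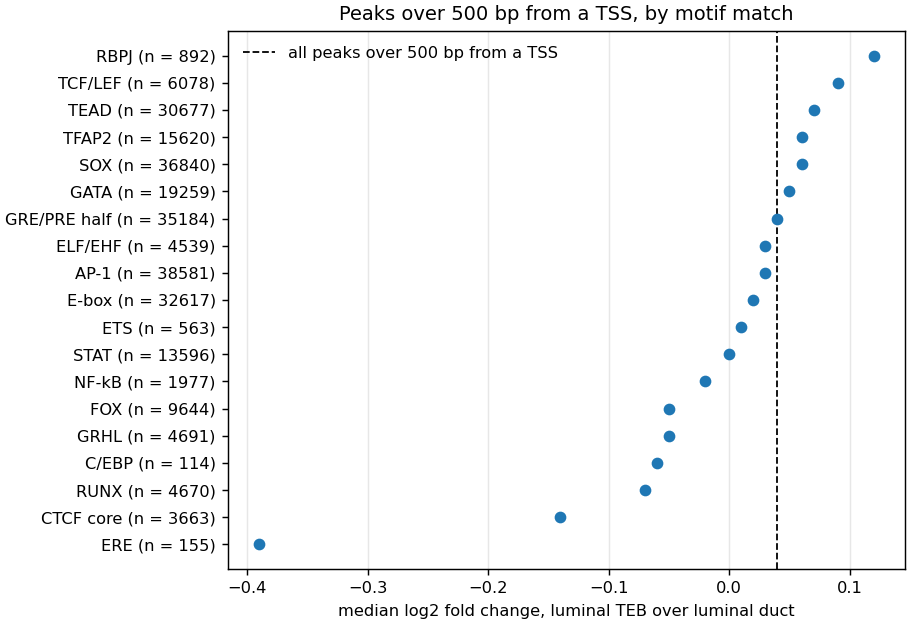
Each point is the median log2 fold change of luminal TEB over luminal duct (x axis) of the peaks over 500 bp from a TSS that hold a match to the named motif in their central 300 bases, and the dashed line is the median of all such peaks, 0.04. The 155 ERE peaks lie farthest from the line, at -0.39, while the AP-1 peaks, at 0.03, lie next to it. Motifs with fewer than 100 peaks are not shown.

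The medians of the other motifs lay closer to that of all peaks. The searches differed in strictness, which limits this ranking. Over 500 bp from a TSS, the full ERE palindrome stood in 155 peaks and the shorter AP-1 letters in 38581. Among peaks over 500 bp from a TSS, the next lowest median of a motif with at least 100 peaks was that of the core of the CTCF site, the motif of the insulator protein, at -0.14 over 3663 peaks. RUNX (TGTGGTTT), FOX (TGTTTAC) and GRHL (AACCNGTT) motifs, of factors that act in luminal and other epithelial cells, had medians of -0.07, -0.05 and -0.05. At the other end were RBPJ (CGTGGGAA), the DNA-binding partner of Notch, at 0.12, and TCF/LEF (ATCAAAG), that of Wnt signalling, at 0.09. The full palindrome shared by the glucocorticoid and progesterone receptors stood in 21 peaks, with 0 called. All letters were searched on both strands, matches of different motifs may overlap, and a match says only that the letters stand there.

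Called peaks differed from all peaks in several motif shares. An AP-1 match stood in 37.7% of TEB-higher peaks, 23.6% of duct-higher peaks and 25.9% of all peaks. This share rested on single libraries, as it was 20.2% without TEB replicate 2 and 27.6% without duct replicate 3. A RUNX match stood in 7.31% of duct-higher, 1.26% of TEB-higher and 3.16% of all peaks, with a range of 4.99% to 11.1% for the duct-higher share when a library was left out. The STAT letters (TTCNNNGAA), the site of the factors that act behind prolactin and cytokine receptors, stood in 12.9% of duct-higher, 6.29% of TEB-higher and 9.45% of all peaks (11.3% to 15.1% for duct-higher peaks when a library was left out).

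Distance from a TSS separated the directions. Of the duct-higher peaks, 210 of 698 lay within 500 bp of a TSS of a protein-coding gene (30.1%, exact 95% binomial interval 26.7 to 33.6), against 19 of 477 TEB-higher peaks (3.98%, 2.41 to 6.15) and 10.8% of all peaks. TEB-higher peaks lay over 10 kb from a TSS in 76.9% of cases (72.9 to 80.6) and duct-higher peaks in 56.9% (53.1 to 60.6), against 69.4% of all peaks. The intervals cover counting error only. Among all tested peaks the median fold change was -0.15 within 500 bp of a TSS, 0.01 at 0.5 to 2.5 kb, 0.03 at 2.5 to 10 kb and 0.05 beyond. The share of duct-higher peaks near a TSS moved with the libraries: it was 46.5% without TEB replicate 2 and between 15.2% and 18.3% without duct replicate 1 or 2 or TEB replicate 1 or 3. With loess offsets on peak strength it was 12.0%, the value nearest to that of all peaks. The lower share of TSS reads in TEB libraries given above moved with this result, and its part in it was not tested.

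**Figure D2:**
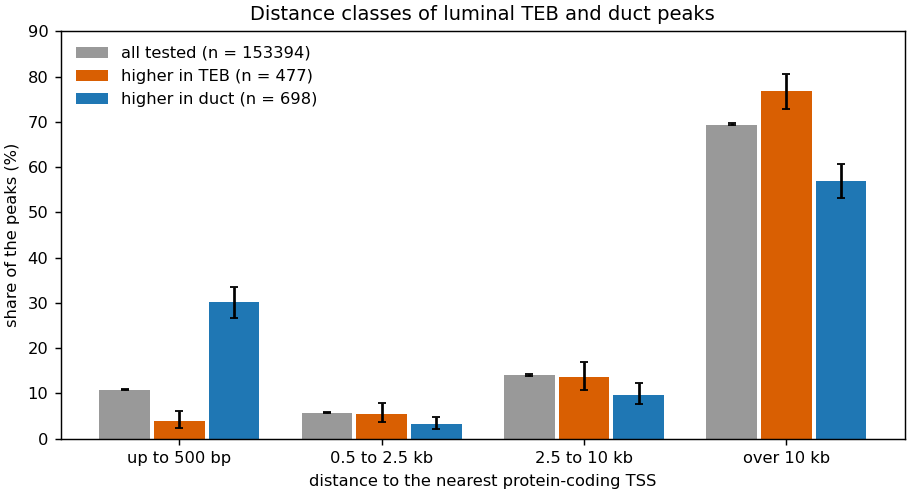
Bars give the share of peaks (y axis, percent) in each class of distance to the nearest protein-coding TSS for all tested peaks, TEB-higher peaks and duct-higher peaks, with exact 95% binomial intervals. Duct-higher peaks were within 500 bp of a TSS in 30.1% of cases and TEB-higher peaks in 3.98%, against 10.8% of all.

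By annotation, 104 duct-higher peaks (14.9%) were centred in an untranslated exon and 198 (28.4%) in an intron, against 5.48% and 45.6% of all peaks. TEB-higher peaks were centred in an intron in 49.3% of cases and in an untranslated exon in 2.52%. Peaks over 50% soft-masked, that is repeat sequence in the reference genome, made up 17.0% of TEB-higher peaks (81), 2.58% of duct-higher peaks (18) and 8.58% of all peaks.

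Some of the duct-higher peaks away from a TSS followed the end of a gene. This class was set up after the values were seen. A peak centre within 3 kb past the 3′ end of a protein-coding gene was found for 37 of 488 duct-higher peaks over 500 bp from a TSS (7.58%), for 17 of 458 TEB-higher peaks (3.71%) and for 5123 of all 136764 such peaks (3.75%). The duct-higher share was 5.88% to 18.1% when a library was left out. The 37 peaks followed 27 genes. Of the 37, 17 followed Prlr or genes of the immediate-early class, which growth factors, stress and tissue handling induce within minutes. A list of 29 such genes, drawn up after the first of them had been seen, is therefore a description and no test.

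The peaks past the ends of immediate-early genes and of Prlr numbered 37 over 20 genes. Of these 37 peaks, 33 had a fold change below 0, 17 were duct-higher and 0 TEB-higher, with a median of -0.62. Over all 5123 peaks past a gene end and over 500 bp from a TSS, the median was -0.02. Of those, 37 were duct-higher and 17 TEB-higher. The summed level of the peaks past immediate-early and Prlr ends was 1010, 879 and 726 CPM in duct and 565, 526 and 469 CPM in TEB libraries. Every duct library lay above every TEB library. The set was drawn up after such peaks were seen and holds the 17 called ones. Part of this separation was therefore built in by the choice, and it is no test. Of the promoters of the immediate-early genes, 24 of 27 had a fold change below 0 and 0 passed the test. Their median was -0.25, against -0.16 for all promoter peaks, of which 1.44% were duct-higher.

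The peak with the smallest p of the comparison lay at chr7:19301548-19302636, just past the 3′ end of Fosb. It had 76.1, 68.6 and 46.7 CPM in duct and 26.5, 19.3 and 20 CPM in TEB libraries (-1.53 ± 0.26, edgeR adjusted p = 1.2e-13). The lowest duct library was well above the highest TEB library. A peak in an untranslated exon of the same gene, at chr7:19304322-19304480, had 19.2, 16.6 and 15.9 CPM against 5.2, 5.17 and 4.6 CPM (-1.77 ± 0.1, edgeR adjusted p = 5.5e-08). Of the 13 peaks nearest to Fosb, 4 were duct-higher.

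Fos, the founding AP-1 gene, had the most duct-higher peaks of any gene, 5 of 32, and 4 of them lay in a row past its 3′ end. The one with the smallest p, 1.6 kb past the end at chr12:85478587-85479134, had 35.1, 35.3 and 28.5 CPM in duct and 11.5, 10.1 and 12.5 CPM in TEB libraries (-1.54 ± 0.13, edgeR adjusted p = 6.1e-11). The other peaks past the end of Fos had fold changes of -1.24, -1.18 and -1.42, and the groups overlapped at none of them. All 4 calls were kept in every alternative tested, as were those of 2 peaks past the end of Gadd45g. The first of these had 8.24, 9.48 and 11.4 CPM in duct and 1.37, 3.54 and 3.28 CPM in TEB libraries (-1.83 ± 0.38, edgeR adjusted p = 6.8e-05), and the second fell by 2.02 on the log2 scale.

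Peaks past the ends of Btg2, an antiproliferative gene, and Atf3, a stress-response factor, differed by -1.04 ± 0.35 and -0.87 ± 0.2 (edgeR adjusted p = 0.00084 and 0.0032). Both calls ended without duct replicate 1 and without TEB replicate 3, with values that stayed between -1.27 and -0.71. Single peaks past Klf4, Klf6 and Sik1 also passed the test, at -1.13, -0.62 and -0.72. The Klf6 call ended without any of the 6 libraries (-0.66 to -0.47) and the other calls without any but duct replicate 3 (-1.42 to -0.88 for Klf4 and -0.81 to -0.57 for Sik1). Outside the list, past the luminal keratin genes Krt8 and Krt18, whose products pair in simple epithelia, peaks differed by -0.6 and -0.61 (edgeR adjusted p = 0.034 and 0.025), and the calls ended without any library but TEB replicate 2 (-0.81 to -0.41 for Krt8) and without duct replicate 1 or 3 or TEB replicate 1 or 3 (-0.74 to -0.39 for Krt18).

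**Figure D3:**
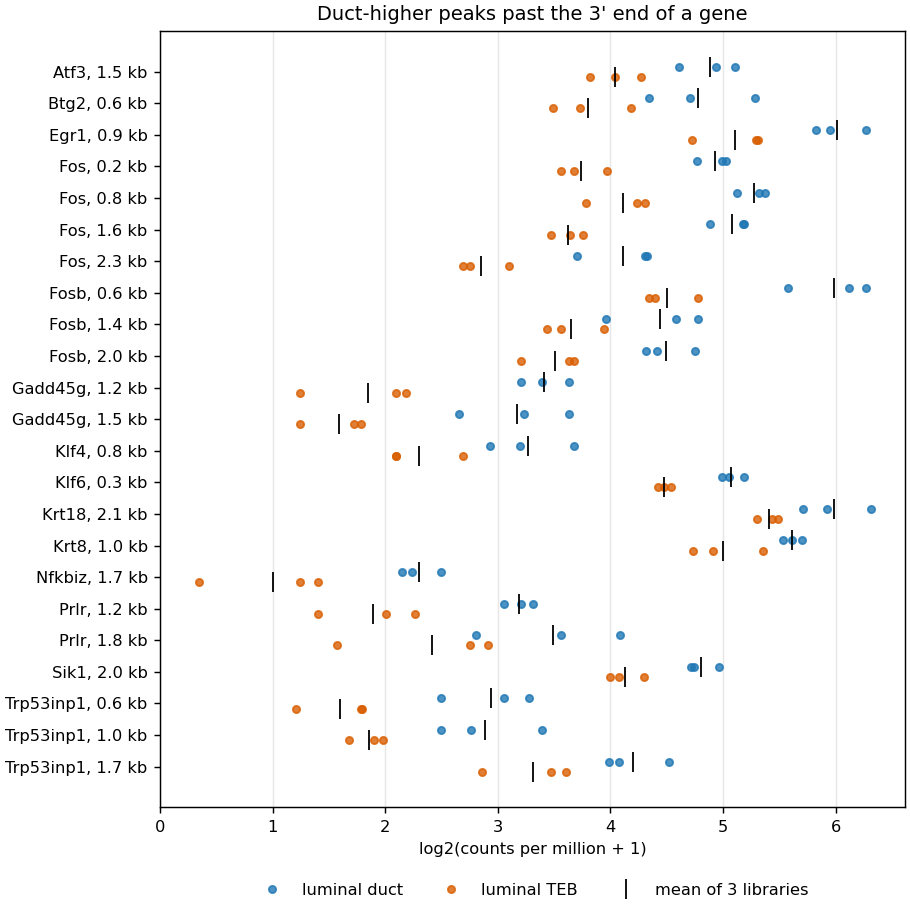
Points give log2(CPM + 1) of each library (x axis) at duct-higher peaks past the 3′ end of the named gene, with the distance of the peak centre from the gene end, and the bars mark the mean of 3 libraries. TEB libraries lie below duct libraries at every Fos, Fosb (0.6 kb) and Gadd45g peak, while at Prlr, 1.8 kb, the groups overlap.

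Prlr, the prolactin receptor gene, had its called peaks at the same kind of place. The peak at chr15:10350202-10350530, past the 3′ end of Prlr with the TSS of Agxt2 as the nearest, had 8.24, 8.93 and 7.28 CPM in duct and 3.01, 3.81 and 1.64 CPM in TEB libraries (-1.49 ± 0.31, edgeR adjusted p = 0.0033). A second peak beside it, which is 81.4% soft-masked, had 10.8, 16 and 6.0 CPM against 5.74, 6.54 and 1.97 CPM (-1.17 ± 0.62, edgeR adjusted p = 0.023), and here the groups overlapped. The first call ended without TEB replicate 3 and the second without duct replicate 1 or 2 or TEB replicate 1 or 3, at values from -1.77 to -1.25 and from -1.46 to -0.78. The Prlr promoter itself had 7.61, 13.9 and 11.4 CPM in duct and 13.4, 12.8 and 13.5 CPM in TEB libraries and was not called (0.26 ± 0.25, edgeR adjusted p = 0.76).

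Promoters of hormone and cytokine genes were next examined as lists. A promoter peak was the strongest peak within 500 bp of a TSS of the gene. Over all 13745 promoter peaks, 12 were TEB-higher (0.0873%) and 198 duct-higher (1.44%), with a median of -0.16. In 5 lists of hormone receptors, hormone targets and paracrine mediators, cytokine receptors, cytokines and chemokines, and JAK-STAT and SOCS genes, 125 promoters were measured, of which 0 were TEB-higher and 3 duct-higher (2.4%), with a median of -0.13. At an unadjusted p below 0.05 there were 22 (17.6%), of which 19 (86.4%) were lower in TEB cells, against 19.4% of all promoter peaks, of which 91.5% were lower. The medians of the 5 lists ran from -0.21 for hormone receptors to -0.11 for cytokine receptors, on both sides of that of all promoter peaks.

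The Thrb promoter had the largest difference of the 3 called promoters. Thrb encodes thyroid hormone receptor β, and its promoter had 45.2, 43.1 and 35.1 CPM in duct and 17.2, 24.8 and 24.0 CPM in TEB libraries (-0.91 ± 0.2, edgeR adjusted p = 0.00029). It kept the call in every alternative. The promoter of Igf1r, the IGF1 receptor through which growth hormone signals reach the TEB, had 34.0, 29 and 28.7 CPM against 18.6, 22.6 and 14.8 CPM (-0.7 ± 0.19, edgeR adjusted p = 0.023). That of Il6ra, the IL-6 receptor α chain, had 49.0, 46.1 and 46.3 CPM against 26.5, 37.3 and 31.5 CPM (-0.57 ± 0.14, edgeR adjusted p = 0.047). The groups were separate at all 3 promoters. The Igf1r call ended without duct replicate 1 or 2 or TEB replicate 1 or 3, the Il6ra call without any library but TEB replicate 2, and both with factors from TSS peaks, at values from -0.86 to -0.55 and from -0.71 to -0.38.

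Every TEB library was below every duct library at 21 of the 125 promoters (16.8%, against 23.4% of all promoter peaks) and above at 5 (4.0%, against 3.45%). The glucocorticoid receptor gene Nr3c1 was at -0.43 ± 0.18, the growth hormone receptor gene Ghr at -0.39 ± 0.19 and the oncostatin M receptor gene Osmr at -0.44 ± 0.2, with edgeR adjusted p of 0.17, 0.28 and 0.21. The leptin receptor gene Lepr had separate groups the other way, with 7.82, 6.51 and 4.28 CPM in duct and 8.48, 7.9 and 8.86 CPM in TEB libraries (0.43 ± 0.24, edgeR adjusted p = 0.59). Among the hormone targets, the promoter of Areg, which encodes amphiregulin, had 18.8, 23.4 and 18.4 CPM in duct and 13.1, 24.2 and 16.7 CPM in TEB libraries (-0.17 ± 0.27, edgeR adjusted p = 0.88). The progesterone-responsive Wnt4 promoter was at 0.04 ± 0.12 and the promoters of Socs2, Cish and Stat5a, in the prolactin pathway, were at 0.07 ± 0.15, -0.11 ± 0.26 and -0.04 ± 0.23, with overlapping groups. In the list of NF-kB and innate response genes, 1 of 26 promoters was duct-higher (3.85%, against 1.44% of all promoter peaks). This was the promoter of Nfkbia, the IκBα inhibitor that NF-kB itself induces. It had 70.6, 82.8 and 63.2 CPM in duct and 39.9, 49.3 and 50.2 CPM in TEB libraries (-0.64 ± 0.15, edgeR adjusted p = 0.01), and the call ended without duct replicate 2 or TEB replicate 1, at values from -0.71 to -0.4.

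**Figure D4:**
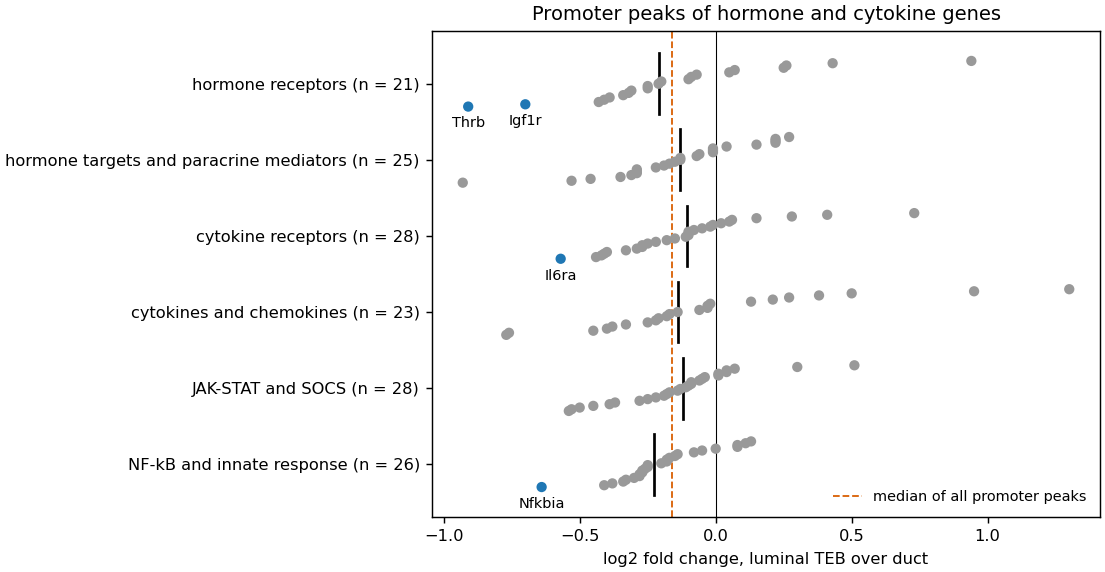
Each point is the log2 fold change of luminal TEB over duct (x axis) of 1 promoter peak in the named gene list, with blue points for those past the test, black bars for list medians and the dashed line for the median of all promoter peaks, -0.16. The 4 named promoters, Thrb, Igf1r, Il6ra and Nfkbia, lie on the duct side.

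Peaks in the surroundings of the hormone and cytokine genes were counted in the same way. A locus peak was one whose nearest TSS, within 100 kb, belonged to a member, which is a label of position and not of a target. Of 1491 locus peaks of the 5 lists, 8 were TEB-higher (0.537%, against 0.311% of all peaks) and 7 duct-higher (0.469%, against 0.455%), with a median of 0.01. Of the 8 TEB-higher peaks, 3 were soft-masked peaks at Pdzk1, described below. The 7 duct-higher peaks include the Thrb, Igf1r and Il6ra promoters already given. The Greb1 intron site shown above, 9.66 kb from the TSS, had 12.7, 10.4 and 13.7 CPM in duct and 6.02, 4.63 and 4.92 CPM in TEB libraries (-1.23 ± 0.15, edgeR adjusted p = 0.0041). Greb1 is a standard oestrogen target and a cofactor of ERα, the site kept its call in every alternative, and the Greb1 promoter was at -0.29 ± 0.2 without a call. An intron site of Il15ra, the IL-15 receptor α chain, had 16.9, 17.5 and 21.2 CPM against 9.03, 10.6 and 8.53 CPM (-0.97 ± 0.13, edgeR adjusted p = 0.0058), and its call ended without TEB replicate 1 or 3, at values from -1.07 to -0.82. Sites near Tnfrsf21, which encodes a death receptor, and 72.7 kb from Gata3, the luminal master regulator, were at -0.84 ± 0.31 and -0.79 ± 0.19 (edgeR adjusted p = 0.008 and 0.042). The Tnfrsf21 call ended without duct replicate 1 or TEB replicate 1 or 3 (-1.2 to -0.68) and the Gata3 call without any library but duct replicate 1 (-0.91 to -0.64).

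The TEB-higher locus sites differed in strength. An intron site of Il1r1, the receptor of IL-1, had 8.24, 8.74 and 8.14 CPM in duct and 15.0, 16.3 and 13.8 CPM in TEB libraries (0.85 ± 0.07, edgeR adjusted p = 0.038). The groups were far apart there, but the call ended when any of the 6 libraries was left out, at values from 0.78 to 1.0. A site 68.3 kb from Lif, the gene of the STAT3-activating cytokine LIF, had 2.54, 2.05 and 0.428 CPM against 5.47, 7.08 and 5.58 CPM (1.83 ± 0.55, edgeR adjusted p = 0.002), and its call ended without duct replicate 3, with values from 1.41 to 2.21. Sites near the retinoid receptor genes Rarb (1.12 ± 0.35) and Rxra (1.19 ± 0.35) and the kinase gene Jak1 (1.8 ± 0.35) had edgeR adjusted p of 0.034, 0.04 and 0.049. The Rarb call ended without duct replicate 1 or 2 or TEB replicate 2 or 3 (0.72 to 1.38), the Rxra call without any library but duct replicate 1 (0.95 to 1.55) and the Jak1 call without any of the 6 (1.62 to 2.23). The 3 called peaks at Pdzk1, a scaffold protein gene with oestrogen response, were wholly soft-masked, and the one with the smallest p had 4.02, 2.05 and 2.14 CPM in duct and 5.47, 16.9 and 2.63 CPM in TEB libraries. Its call ended without duct replicate 2 or 3 or TEB replicate 2, with values from 0.6 to 2.03.

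**Figure D5:**
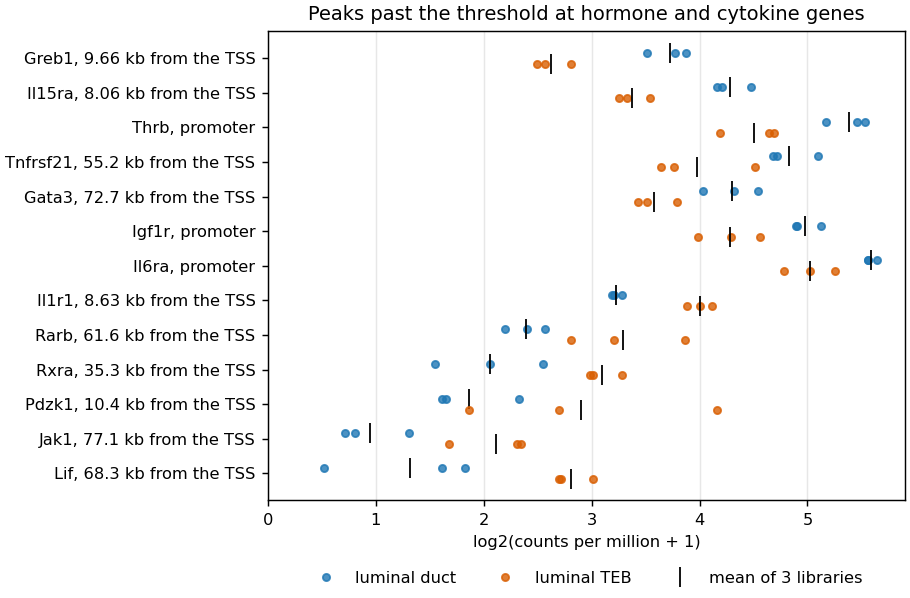
Points give log2(CPM + 1) of each library (x axis) at the called peak with the smallest p of each hormone or cytokine gene that had one, and bars mark the mean of 3 libraries. The 7 upper sites, from Greb1 to Il6ra, were lower and the others higher in TEB cells, and at Pdzk1 the groups overlap.

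Over all 13745 promoter peaks, the few calls were mostly duct-higher, at 198 (1.44%) against 12 TEB-higher (0.0873%). This balance moves with the scaling, as factors from TSS peaks cut the duct-higher peaks of all classes from 698 to 329. Among the 8 largest differences at called promoters with separate groups and a level above the median promoter peak was that of Zpbp, which encodes a sperm acrosome protein. It had 42.3, 39.6 and 43.3 CPM in duct and 18.1, 22.6 and 19.0 CPM in TEB libraries (-1.06 ± 0.1, edgeR adjusted p = 2.6e-06). The imprinted zinc-finger gene Zim1 had 28.3, 23.4 and 26.8 CPM against 12.9, 10.6 and 14.1 CPM (-1.07 ± 0.14, edgeR adjusted p = 0.00014), and the protocadherin gene Pcdh17 had 30, 29.4 and 25.9 CPM against 15.3, 13.6 and 11.2 CPM (-1.08 ± 0.14, edgeR adjusted p = 4.1e-05). Groups were separate at each. Beside Zim1, an intron site of the imprinted gene Peg3 had 165, 151 and 160 CPM in duct and 93.3, 104 and 96.5 CPM in TEB libraries (-0.69 ± 0.06, edgeR adjusted p = 0.00023). Trim30a, an interferon-inducible gene, and Ccser1 fell by 1.02 on the log2 scale each, and Dpyd and Cwc22 were at -0.92 and -0.84. The smallest adjusted p among promoters was that of Cyp2r1, the vitamin D 25-hydroxylase, at -1.48 ± 0.25 (edgeR adjusted p = 7.2e-07), with 19.2, 19.5 and 22.5 CPM in duct and 8.75, 7.9 and 4.92 CPM in TEB libraries. These calls held in every alternative except for those of Dpyd, which ended without TEB replicate 1 (-1.16 to -0.74), and Cwc22, which ended without duct replicate 2 (-0.91 to -0.68).

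No TEB-higher promoter passed the same rule. Those named here were picked after their values were seen. The Ptprn promoter, of a secretory granule protein gene, had 2.54, 2.05 and 1.71 CPM in duct and 9.03, 8.99 and 8.86 CPM in TEB libraries (2.08 ± 0.13, edgeR adjusted p = 2.6e-06). That of Has2, the main hyaluronan synthase, had 2.75, 4.09 and 2.36 CPM against 8.21, 7.9 and 8.53 CPM (1.39 ± 0.21, edgeR adjusted p = 0.0048). Both calls held in every alternative, and at both the TEB libraries were close together and above all duct libraries. A TSS peak of Tpm1, a tropomyosin gene, had 10.4, 6.51 and 6.21 CPM against 16.1, 16.9 and 13.8 CPM (1.03 ± 0.24, edgeR adjusted p = 0.0084), and its call ended without duct replicate 2 or TEB replicate 1, at values from 0.91 to 1.29.

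Gene lists of luminal and basal identity had no called promoter. In the promoters of luminal progenitor and milk genes (17), mature luminal genes (20), pan-luminal genes (22), basal identity genes (22), contractile genes (20) and cell cycle genes (32), 0 were called in either direction, with medians of -0.03, -0.15, -0.16, -0.12, 0.05 and -0.05. Of all promoter peaks 1.44% were duct-higher and 0.0873% TEB-higher, so lists of this size would hold few calls or none at that rate. Among locus peaks, 2 of 185 were TEB-higher and 0 duct-higher for luminal progenitor and milk genes (1.08% TEB-higher, against 0.311% of all peaks), and 3 and 1 of 288 for mature luminal genes (1.04% and 0.347%). For pan-luminal genes 0 and 3 of 299 were called (1.0% duct-higher, against 0.455% of all peaks), and for cell cycle genes 0 and 3 of 178 (1.69%). Locus peaks of the contractile and the basal identity lists had medians of 0.25 over 281 peaks and 0.19 over 343 peaks, against 0.01 for all peaks, with 2 TEB-higher (0.712% and 0.583%) and 0 duct-higher peaks in each. Locus peaks of extracellular matrix genes had a median of 0.2 over 386 peaks, with 0 TEB-higher and 1 duct-higher (0.259%). Those of fibroblast markers had 0.21 over 117 peaks, with 1 TEB-higher (0.855%) and 0 duct-higher. The summed promoter CPM of the contractile list was 289 to 339 in duct and 296 to 323 in TEB libraries, and the part of other cells in these locus medians was not tested.

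Among peaks over 10 kb from a TSS, the duct-higher ones named by p included sites with little signal left in TEB cells. A peak 655 kb from Mef2c had 6.34, 6.32 and 8.57 CPM in duct and 1.37, 0.817 and 0.985 CPM in TEB libraries (-2.7 ± 0.2, edgeR adjusted p = 1.4e-06). A peak 12.6 kb from Tmem74 had 10.8, 7.07 and 9.21 CPM against 1.64, 2.45 and 0.0 CPM (-2.62 ± 0.82, edgeR adjusted p = 5.5e-08). A stronger peak 346 kb from Cobl had 29.4, 34.0 and 39.4 CPM against 11.8, 17.7 and 15.4 CPM (-1.2 ± 0.21, edgeR adjusted p = 1.3e-06). Peaks nearest to Nxph1, Phtf2 and Khdrbs3 were at -2.22, -1.63 and -1.36. All 6 kept their calls in every alternative that gave them an adjusted p. Nearer to a TSS, an intron site of Gas6, a ligand of TAM receptors, had 13.5, 10.4 and 13.5 CPM against 3.56, 5.72 and 5.25 CPM (-1.36 ± 0.23, edgeR adjusted p = 0.00084). Leaving out TEB replicate 1 ended this call (-1.51 to -1.16).

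Among TEB-higher peaks over 500 bp from a TSS, 38.9% held an AP-1 match, against 28.2% of all such peaks, and over all TEB-higher peaks the share was 20.2% without TEB replicate 2. In an intron of Irak3, a negative regulator of IL-1 and Toll-like receptor signalling, a peak 4.2 kb from the TSS had 12.5, 11.2 and 12.9 CPM in duct and 23.5, 32.1 and 27.6 CPM in TEB libraries (1.19 ± 0.14, edgeR adjusted p = 4.6e-06). A peak 91.1 kb from Adamts3, a procollagen protease gene, had 6.55, 5.39 and 4.5 CPM against 12.3, 23.4 and 16.1 CPM (1.65 ± 0.3, edgeR adjusted p = 9e-07). Both hold an AP-1 match, the groups overlapped at neither, and both calls held in every alternative. Of the other distal peaks named by p, that 34.7 kb from the DNA-sensor gene Aim2 was at 1.56 ± 0.21 and that 174 kb from Fggy at 2.09 ± 0.46, while the peak 19.9 kb from Dtl, which like that of Aim2 holds no AP-1 match, had counts of 0, 3 and 0 in duct and 12, 27 and 8 in TEB libraries.

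Laptm4a had 3 TEB-higher peaks out of 25, within a few kb of each other upstream of the gene, which encodes a lysosomal membrane protein. The peak shown above, 45.7 kb from the TSS, had 1.48, 2.05 and 0.857 CPM in duct and 6.84, 7.9 and 4.27 CPM in TEB libraries (2.09 ± 0.36, edgeR adjusted p = 0.0003). The next and the last peak, closer to the TSS, differed by 0.94 ± 0.3 and 1.24 ± 0.21. The peaks at 45.7 and 43.8 kb kept their calls in every alternative, and the call of the one between ended without duct replicate 1 or 3 or TEB replicate 2 or 3 (0.77 to 1.28). Rin3, Kalrn, Flt1, Insm1, Amotl1 and Sv2c also had 3 TEB-higher peaks each. The strongest at Rin3, a regulator of endocytosis, had 6.34, 9.11 and 7.07 CPM against 17.8, 17.7 and 16.4 CPM (1.19 ± 0.15, edgeR adjusted p = 0.0003).

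Several groups of TEB-higher peaks lay in repeat sequence. The gene with the most of them, Gm11168, had 5 of 7, all near chr9:3001987-3008714 wholly soft-masked, with differences of 0.5 to 0.55 and overlapping groups. Their calls ended without duct replicate 1 or 2 or TEB replicate 1 or 3 (0.37 to 1.01). A peak in an intron of Pdlim1 (1.69 ± 0.66, edgeR adjusted p = 1.1e-05) was 93.6% soft-masked. A peak 378 kb from Etaa1 had 7.19, 3.35 and 3.86 CPM in duct and 16.1, 4.63 and 36.4 CPM in TEB libraries, with overlapping groups, and its call ended without TEB replicate 3 (1.12 to 2.44), although no part of it is soft-masked. How the authors treated reads that map to several places can set the values of such peaks.

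The same peaks were read in the basal pair, where 3 basal TEB and 2 basal duct libraries were tested alike. The basal TEB libraries held 1821942, 2489582 and 2040392 counts in peaks, and the basal duct libraries 9986384 and 6816197. Mostly soft-masked peaks took 16.2%, 7.03% and 9.75% of the counts in basal TEB and 2.4% and 2.45% in basal duct libraries. Such peaks made up 17.0% of luminal TEB-higher peaks, against 8.58% of all peaks. The part of depth and repeat sequence in the shares that follow was not tested. Among all peaks 8.22% were higher in basal TEB and 9.73% in basal duct cells. Of the 476 luminal TEB-higher peaks with a basal test, 115 (24.2%) were higher in basal TEB cells and 31 (6.51%) in basal duct cells, with a median of 0.88. Of the 698 luminal duct-higher peaks, 187 (26.8%) were higher in basal duct and 25 (3.58%) in basal TEB cells, with a median of -0.14. The interaction of structure and lineage, from a quasi-likelihood fit of edgeR to all 11 libraries, was called for 151 of 472 (32.0%) and 237 of 688 (34.4%) of these peaks, against 14% of all. Peaks chosen for a luminal difference enter that test with the difference built in, so the shares are a description.

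Single sites ranged from like to opposite values in the basal pair, within gene ends and promoters too. The peak 1.6 kb past Fos was at -1.54 in luminal and -1.58 in basal cells (interaction adjusted p = 0.96), while the Prlr peak given above was at -1.49 and 2.96 (interaction adjusted p = 0.0049). The Cyp2r1, Zpbp and Thrb promoters, at -1.48, -1.06 and -0.91 in luminal cells, were at -1.51, -1.52 and -1.35 in basal cells, and the Bcl11a promoter was at -1.28 and -0.44 (interaction adjusted p = 0.046). The ERE site 211 kb from Gadd45g, at -1.94 in luminal cells, was at 3.05 in basal cells (interaction adjusted p = 0.0012). There the basal duct libraries had 0.232 and 0.152 CPM and the basal TEB libraries 2.06, 0.0 and 3.53 CPM, levels below those of luminal duct cells. An intron site of Trim47, a ubiquitin ligase gene, had 5.92, 6.32 and 6.0 CPM in luminal duct and 10.1, 16.1 and 15.8 CPM in luminal TEB libraries (1.19 ± 0.21, edgeR adjusted p = 0.0023) and went the other way in basal cells, at -1.69 (interaction adjusted p = 3.2e-06). The luminal call of Trim47 ended without TEB replicate 3, with values from 1.07 to 1.4.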

How the data were processed

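Counts per peak were taken as deposited by the authors for 11 ATAC-seq libraries, of which the 3 luminal TEB and 3 luminal duct libraries form the comparison. The authors aligned reads to mm10 with Bowtie2 (the labels give 2.3.4.3, the study's methods another release), removed duplicates, pooled the replicates of a population for MACS2 peak calling, merged the 4 peak sets, removed blacklisted regions and counted reads in SeqMonk without further normalization. The peak list held 153682 peaks, 286 of them without counts. Because peaks were called on pooled replicates, weak peaks depend on the groups that define them, and the treatment of reads with several matches in the genome is not given in the sources that were used.

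Counts were tested with the exact test of edgeR 4.0.16 in R 4.3.3, with TMM factors and dispersions from the 6 libraries and Benjamini-Hochberg adjustment over 153394 peaks. The biological coefficient of variation was 0.134 in the luminal pair and 0.268 in the basal pair. The interaction used the edgeR quasi-likelihood test. Log2 CPM used a prior count of 2. Nothing in the labels names separate animals for each library beyond the replicate numbers, so p-values measure the spread between these samples. Peaks were annotated with GENCODE vM21 and 41421 protein-coding TSSs, and 21 motifs and 23 gene lists were examined.

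Named peaks were the 8 largest differences per direction among called promoters with separate groups and above-median level, from each list the 2 called promoters of smallest p, the called locus peak with the smallest p of each hormone or cytokine gene, the smallest p per distance class (6 beyond 10 kb, 2 in each nearer class), the 8 genes per direction with the most called peaks, and fixed marker and hormone genes by promoter peak. ERE sites, gene-end sites and TEB-higher promoters were added after their values were seen. A few peaks that meet these rules are not reported here. The comparison, the members and the lists were chosen with earlier results of these data known. Counts were simulated for 153383 peaks, with changes placed only in peaks above the median level. Of these, 40 of 40 peaks changed 4-fold upward were recovered and 28 of 40 changed to 0.25. The test recovered 12 of 40 changed 2-fold, 11 of 40 changed to 0.5 and 4 of 40 changed 1.5-fold, with 5 false calls. Recovery at weaker peaks was not simulated. Alternatives covered scaling, filters, tests, thresholds, the locus and motif windows, a replicate block and leaving out each library.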

Additional observations from a re-analysis of the deposited data

Results flagged for a closer look

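At the peaks named here the difference between TEB and duct was not the same in luminal and basal cells, by the edgeR quasi-likelihood test of the interaction. Most of these peaks were chosen for a call in the luminal pair, whose libraries also enter this test. Part of the difference was therefore built in by the choice, and for those peaks the result is a description. Values are luminal minus basal log2 differences. Basal libraries held few counts at many of these peaks, basal duct had 2 libraries, and without basal duct replicate 1 the number of such named peaks of all kinds fell from 75 to 42.

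Among ERE sites the values were -5.03 near Gadd45g, -2.32 at Pfkfb3, -4.78 near Fcna, -2.28 near Ssx2ip, -3.77 near Epha7 and -3.22 near Gm16223. Basal duct libraries were between 0.0 and 1.83 CPM at these sites. Other peaks with a negative value were those of Tmem74 (-7.16), Phtf2 (-5.2), Nxph1 (-4.3), Cobl (-1.77), Dmrta1 (-1.53), Tnfrsf21 (-1.48), Gas6 (-1.33) and Peg3 (-1.31). Positive values were found at Trim47 (2.8), Sv2c (2.28), Rarb (1.63) and Rxra (1.51).

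Among promoters of fixed genes that were not called in luminal cells, the prolactin and progesterone pathway genes Wnt4 (1.89), Socs2 (1.59) and Stat5a (0.88) and the keratin genes Krt14 (2.51) and Krt18 (1.19) had positive values. Those of the luminal progenitor genes Csn3 (-2.08) and Elf5 (-1.83) had negative values. So had that of Dmrta1 (-1.53), whose fold change in luminal cells was 0.02. Wnt4, Socs2 and Stat5a were at 0.04, 0.07 and -0.04 in luminal cells, so their values came mostly from the basal pair. The Krt8, Krt18, Krt19, Epcam, Cdh1, Cldn3, Cldn7 and Elf3 promoters all had a lower mean in basal TEB than basal duct libraries. The interaction was called for 14% of all peaks. Krt14 was at only 0.993 and 2.1 CPM in luminal duct and TEB libraries.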

How the results depend on the processing

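Of 199 named peaks, 166 were called. Of the called peaks, 0 reversed their direction in any alternative. The call was kept by 42 in all alternatives that gave an adjusted p, leaving out each library included. The median called peak lost its call in 5 alternatives. Peaks without a call could change sign, as the Foxa1 promoter did (-0.16 to 0.21). Leaving out 1 library gave 153 to 515 TEB-higher and 126 to 1043 duct-higher peaks. The same ranges were 3.17% to 6.78% and 15.2% to 46.5% for the TSS share of TEB-higher and duct-higher peaks, 1 to 5 duct-higher hormone and cytokine promoters, 2 to 6 TEB-higher and 2 to 9 duct-higher locus peaks, 20.2% to 42.1% for AP-1, 4.99% to 11.1% for RUNX, 0.575% to 2.45% for ERE and 5.88% to 18.1% for gene ends. Of the named peaks 75 differed between lineages, 42 without basal duct replicate 1 and 58 without basal duct replicate 3.

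In the values that follow, TEB-higher and duct-higher counts of peaks come first. Factors from TSS peaks gave 1326 and 329, a duct TSS share of 21.6%, 1 promoter and 16 and 4 locus peaks. Library totals gave 753 TEB-higher peaks and a duct TSS share of 33.9%. Loess offsets gave 407 duct-higher peaks, TSS shares of 7.49% and 12.0%, 1 promoter, 4 duct-higher locus peaks and a STAT share of 16%. GC offsets gave TSS shares of 7.03% and 25.5% and 1 promoter. The filter of low counts gave 968 and 1066, a duct TSS share of 42.2%, 5 promoters and 15 TEB-higher locus peaks. DESeq2, which gave an adjusted p for 7670 peaks only, called 21 and 451, a duct TSS share of 83.6%, 0 and 3 locus peaks, 10.8% at gene ends and shares of 33.3% for AP-1, 1.77% for RUNX, 5.99% for STAT and 0.0% for ERE. Factors and dispersions from 11 libraries gave 144 and 176, TSS shares of 7.64% and 14.2%, 1 promoter, 1 and 3 locus peaks, 11.3% at gene ends, 33.3% for AP-1 and 11.4% for RUNX. A threshold of 0.01 gave 104 and 180, TSS shares of 7.69% and 22.2%, 1 promoter, 2 and 4 locus peaks, 11.4% at gene ends, 11.1% for RUNX and 2.22% for ERE. Loci within 50 kb held 5 TEB-higher peaks, and whole peaks gave 44.7% for AP-1, 11% for RUNX and 26.8% for STAT. The cause of these shifts was not tested.

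The replicate block gave 1049 and 1702 peaks, a duct TSS share of 40%, 7 promoters, 15 and 13 locus peaks, 33.2% for AP-1 and 4.99% for RUNX. Deviations of same-numbered libraries correlated at 0.088, 0.094 and 0.076, and those of other pairs at -0.06 to -0.025, so each library correlated best with its own number, a hint from the data and not the design. Gene-end and motif shares under other settings were added after seeing the data. Median counts of 9 to 15 per peak limit what weak peaks can show.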

Other observations

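Beyond the hormone lists, growth factor genes had 1 duct-higher promoter of 37 (2.7%, against 1.44% of all promoter peaks), with a median of -0.17, and 1 TEB-higher and 3 duct-higher of 619 locus peaks (0.162% and 0.485%, against 0.311% and 0.455% of all peaks). Wnt and Notch genes had 1 duct-higher promoter of 32 (3.12%), with a median of -0.08, and 4 TEB-higher and 1 duct-higher of 573 locus peaks (0.698% and 0.175%). Ribosomal and housekeeping genes had no call among 28 promoters, with a median of -0.23, the lowest among lists of at least 10 promoters and below the -0.16 of all promoter peaks.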
